A study of Mus musculus with 11 samples.

Results

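The transcripts of 4T1 cells, a mouse mammary carcinoma line, were compared between cultures given 4HC together with an antibody against IFNAR1 and cultures given 4HC alone. 4HC (4-OOH-cyclophosphamide) is a form of cyclophosphamide that becomes active in culture without liver enzymes. The first group (4HC+IFNAR-1 Ab, 3 libraries) had 5 uM 4HC for 4 h with the antibody at 10 ug/mL, then drug-free medium holding fresh antibody for 68 h, so that RNA was collected at 72 h. The second group (4HC, 3 libraries) had the same drug schedule without antibody, and no control antibody is named for it in the labels. Further groups served as points of comparison: cells given IFNβ at 250 U/mL for 4 h and collected 2 h later by their sample labels (3 libraries), and vehicle-treated cells collected at 72 h (2 libraries). A protocol text in the same labels places the IFNβ collection at 68 h instead, and the sample labels were followed here. All 24197 rows of the gene table were taken, over 6 of the 11 libraries of the series. Each group is a culture of 1 cell line, with libraries described as independent cultures.

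IFNAR1 is a subunit of the receptor for type I interferons, the IFNα family and IFNβ. Ligand binding activates the kinases JAK1 and TYK2, which phosphorylate STAT proteins, and these join IRF9 in a complex called ISGF3. ISGF3 binds a promoter sequence named the interferon-stimulated response element (ISRE) and turns on interferon-stimulated genes (ISGs), whose products block viral replication, present antigen and attract lymphocytes. Tumour cells can make and sense type I interferon after damage to their own DNA. An antibody to IFNAR1 that prevents ligand binding can separate what runs through the receptor from what does not, as far as its block is complete.

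Levels are the authors' group means in FPKM, a count of fragments scaled by gene length in kilobases and by library depth in M reads (M for mega). The table holds no value for a single library, so no spread between cultures can be given and no difference was tested. A gene was counted as lower or higher with antibody when the ratio of the 2 means, with 0.1 FPKM added to both, passed 2-fold and the higher mean was at least 1 FPKM. Depth recovered from genes with single reads was 38.2 to 41.4 M reads per library with antibody plus 4HC and 32.1 to 39.3 M with 4HC alone. Reads behind a value were estimated from these depths, and their 95% intervals cover counting error only. Genes of mammary epithelium were present as the label of the cells implies. Krt8 had 136 FPKM with antibody plus 4HC and 134 FPKM with 4HC, and Epcam had 33.3 (antibody plus 4HC) and 32.5 FPKM (4HC). Of the 12 listed epithelial genes past 1 FPKM, 0 differed by over 2-fold (median log2 ratio 0.01). Among all 10211 genes past 1 FPKM other than small RNA loci, 0.735% were lower and 0 higher, so this count of 0 is near the background. The leukocyte gene Ptprc was at or under 0.00897 FPKM, and Adgre1 (listed as Emr1) at 0, in both groups. Not all markers of other cells were this low. The leukocyte gene Cd68 had 7.80 FPKM with antibody plus 4HC and 8.46 FPKM with 4HC. The fibroblast gene Pdgfra had 4.13 (antibody plus 4HC) and 3.38 FPKM (4HC).

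Antibody plus 4HC gave lower levels of antiviral and other interferon-stimulated genes than 4HC alone, while most other genes were close to their 4HC level. Of 10554 rows that reached 1 FPKM, 85 (0.805%) were lower with antibody past 2-fold and 15 (0.142%) were higher. All 15 higher rows and 10 of the lower rows were loci of small RNAs with few reads. Among the 10211 other genes, 75 (0.735%) were lower and 0 were higher. Of these 75 genes, 28 were lower past 4-fold and 9 past 8-fold. With 1 FPKM added to both means in place of 0.1, 59 of the 75 stayed past 2-fold. Of the 10211 genes, 92.4% had a log2 ratio within 0.25 of 0, and the central 95% of them ran from -0.34 to 0.25. The median log2 ratio over rows above 1 FPKM in both groups was -0.02. As the RNA came from whole cultures, fewer expressing cells and less RNA per cell cannot be told apart in any of these differences.

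The lowest ratio belonged to Oas2, which makes 2′-5′ oligoadenylates, an antiviral signal, when double-stranded RNA is present. Oas2 (mm9 chr5:121180341-121199857) had 0.0724 FPKM with antibody plus 4HC and 5.99 FPKM with 4HC, an 82.8-fold difference between the means as deposited. Its log2 ratio was -5.14 with 0.1 FPKM added to both and -2.71 with 1 FPKM added, when Ifi44 (-3.40) and Irf7 (-3.07) were below it. About 33.9 and 2580 reads lay behind these means, and the ratio's counting interval was 0.00838 to 0.0170. IFNβ cells had 2.67 FPKM and control cells 0.0192 FPKM, which rests on about 5.28 reads. Ifi44 (chr3:151393886-151412923), an interferon-induced gene, followed with 0.751 FPKM with antibody plus 4HC and 17.4 FPKM with 4HC, 23.2-fold apart, beside 49.9 FPKM with IFNβ and 0.711 FPKM in control. Irf7 (chr7:148449081-148452323), the transcription factor that amplifies IFNα production, had 1.20 FPKM with antibody plus 4HC and 17.5 FPKM with 4HC. Usp18 (chr6:121195923-121220935), which removes ISG15 from proteins and dampens the receptor, had 0.695 FPKM with antibody plus 4HC and 9.40 FPKM with 4HC. In each of these 4 genes the antibody mean was at least 13.5-fold below the 4HC mean.

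Of the 20 genes with the lowest ratios among those that reached 5 FPKM, Bst2 and Isg15 were the most abundant. Bst2 (chr8:74058160-74061336), the tetherin that holds budding virus at the cell surface, had 33.1 FPKM with antibody plus 4HC and 169 FPKM with 4HC, against 196 FPKM with IFNβ and 26.1 FPKM in control. Isg15 (chr4:155573532-155574927), a ubiquitin-like modifier, had 13.1 FPKM with antibody plus 4HC and 62.3 FPKM with 4HC, against 252 FPKM with IFNβ and 6.07 FPKM in control. They were 5.11-fold (Bst2) and 4.77-fold (Isg15) lower with antibody. The cell surface antigen gene Ly6a had 1.89 FPKM with antibody plus 4HC and 9.46 FPKM with 4HC, and the nuclear body gene Sp100 had 2.34 (antibody plus 4HC) and 10.5 FPKM (4HC). The apoptosis-linked gene Xaf1 had 1.45 FPKM with antibody plus 4HC and 9.21 FPKM with 4HC. Rtp4, a chaperone of membrane receptors, had 3.07 FPKM with antibody plus 4HC and 21.1 FPKM with 4HC, and Phf11d had 0.998 (antibody plus 4HC) and 7.72 FPKM (4HC). The last of the 20 was Gbp3, a guanylate-binding protein gene, with 3.15 (antibody plus 4HC) and 13.6 FPKM (4HC), 4.33-fold apart.

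**Figure D1:**
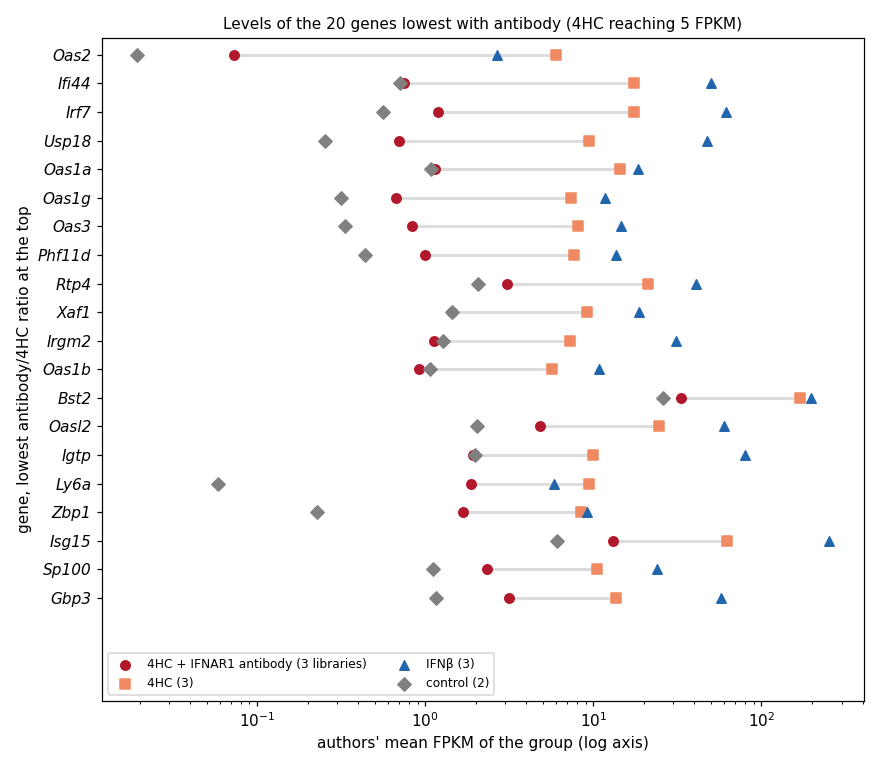
Mean FPKM (log axis) of the 20 genes with the lowest ratio of antibody plus 4HC to 4HC among genes that reached 5 FPKM, with 1 point for each group mean and a grey line from the antibody plus 4HC mean to the 4HC mean. The antibody point lies beside the control point in some genes (Ifi44, 0.751 with antibody plus 4HC and 0.711 FPKM in control) and well above it in others (Ly6a, 1.89 with antibody plus 4HC and 0.0584 FPKM in control), and the table gives no spread for any point.

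Promoter sequences of 5 genes are shown because 4 of them carry the response element found in most promoters of the lower genes and the other, Cxcl1, does not. They are from RefSeq, build GRCm38.p6, and run 5′ to 3′ on the gene's strand from 250 bases before the start of transcription to 50 after it. Capitals mark each match to an ISRE core, taken as TTTC, any 2 bases and TTTC, on either strand (GAAA, 2 bases and GAAA on the other), with overlapping matches merged. Oas1a lies at chr5:120907476-120907775 (minus strand), Bst2 at chr8:71537423-71537722 (minus), Isg15 at chr4:156200769-156201068 (minus), Cxcl10 at chr5:92348840-92349139 (minus) and Cxcl1 at chr5:90890995-90891294 (plus).
Oas1a: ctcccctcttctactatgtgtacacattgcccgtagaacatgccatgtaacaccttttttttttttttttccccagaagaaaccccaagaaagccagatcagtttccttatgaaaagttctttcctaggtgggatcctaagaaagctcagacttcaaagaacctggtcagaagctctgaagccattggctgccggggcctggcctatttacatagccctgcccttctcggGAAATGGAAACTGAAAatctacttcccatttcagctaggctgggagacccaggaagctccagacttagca
Bst2: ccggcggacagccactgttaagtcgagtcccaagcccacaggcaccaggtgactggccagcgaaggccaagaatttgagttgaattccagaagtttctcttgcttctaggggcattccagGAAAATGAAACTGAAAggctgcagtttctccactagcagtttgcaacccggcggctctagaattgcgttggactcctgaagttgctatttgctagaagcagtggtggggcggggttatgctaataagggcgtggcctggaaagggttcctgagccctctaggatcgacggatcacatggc
Isg15: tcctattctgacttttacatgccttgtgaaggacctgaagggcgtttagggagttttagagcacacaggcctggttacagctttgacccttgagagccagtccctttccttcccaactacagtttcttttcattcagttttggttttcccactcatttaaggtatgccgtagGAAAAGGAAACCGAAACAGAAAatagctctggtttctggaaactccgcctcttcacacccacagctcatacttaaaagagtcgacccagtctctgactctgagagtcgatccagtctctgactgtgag
Cxcl10: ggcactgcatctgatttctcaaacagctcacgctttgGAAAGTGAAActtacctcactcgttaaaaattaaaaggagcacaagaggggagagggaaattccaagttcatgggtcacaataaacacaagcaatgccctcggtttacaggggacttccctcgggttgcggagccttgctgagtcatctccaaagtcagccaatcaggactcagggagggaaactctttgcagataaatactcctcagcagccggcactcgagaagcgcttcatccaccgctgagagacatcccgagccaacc
Cxcl1: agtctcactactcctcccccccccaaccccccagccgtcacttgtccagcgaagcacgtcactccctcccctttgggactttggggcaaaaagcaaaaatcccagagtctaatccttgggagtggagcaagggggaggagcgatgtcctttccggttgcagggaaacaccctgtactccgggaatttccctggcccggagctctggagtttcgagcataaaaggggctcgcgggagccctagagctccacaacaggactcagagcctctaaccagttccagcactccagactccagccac
The match nearest the start in Oas1a begins 14 bases before it. Isg15 holds 3 overlapping matches that begin 78, 72 and 66 bases before the start, and Bst2 holds 2 that begin at 130 and 124 bases. Cxcl10 has 1 match, 213 bases before the start, and Cxcl1 has none in this window. The first 4 genes were lower with antibody past 2-fold, and Cxcl1 was not, at 193 FPKM with antibody plus 4HC and 159 FPKM with 4HC. They were picked to show the element: 21 of 57 promoters of lower genes had no match, among them that of Irf7, which was 14.6-fold lower.

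Interferon genes, which include the ligands of the receptor, were near or at 0. The list is wider than those ligands: Il28a and Il28b, which had no row, are type III interferons with another receptor. Of 19 interferon genes listed, 17 had a row, and the highest mean was 0.0584 FPKM with antibody plus 4HC (Ifna2) and 0.136 FPKM with 4HC (Ifne). Ifnb1 was listed at 0 in all 4 groups. The receptor subunits were measured at similar levels in both groups. Ifnar1 (chr16:91485459-91510767), whose protein the antibody binds, had 5.51 FPKM with antibody plus 4HC and 4.91 FPKM with 4HC, and Ifnar2 had 10.9 (antibody plus 4HC) and 11.3 FPKM (4HC). The transcript level says nothing of how much receptor the antibody occupied.

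Of 20 genes of the receptor and its JAK-STAT pathway, 4 were lower past 2-fold with antibody and 0 were higher. The background for the counts of this list and each list below is 0.735% lower and 0 higher among all 10211 genes. The median log2 ratio of the 20 was -0.04, beside -0.02 over all 10211 genes, and medians of lists are over members that reached 0.5 FPKM in the higher group. The lower genes included Irf7, Stat2 and Irf9. Stat2 had 3.39 FPKM with antibody plus 4HC and 9.21 FPKM with 4HC, and Irf9 had 3.39 (antibody plus 4HC) and 10.9 FPKM (4HC). Irf9 with antibody was thus below its control level of 3.92 FPKM. The kinase genes Jak1 (15.0 FPKM with antibody plus 4HC, 14.6 with 4HC) and Tyk2 (3.85 with antibody, 3.59 without) stayed close to their 4HC levels. So did Irf1, a transcription factor that also responds to IFNγ, at 17.7 FPKM with antibody plus 4HC and 21.3 FPKM with 4HC.

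The OAS and IFIT lists, direct antiviral effectors, had the lowest medians of the lists over members at 0.5 FPKM or more. Over members at 5 FPKM or more, the IFIT and IFITM median was -1.31, above those of ISG15 conjugation (-1.65) and interferon-inducible GTPases (-1.49). Of 13 genes of the OAS pathway, 9 reached 1 FPKM and 7 of these were lower past 2-fold, with a median log2 ratio of -2.50. Oas1a (chr5:121346265-121357534) had 1.15 FPKM with antibody plus 4HC and 14.4 FPKM with 4HC, and Oas3 had 0.834 (antibody plus 4HC) and 8.11 FPKM (4HC). Oasl1, an OAS-like protein that restrains Irf7 translation, was less far apart at 8.24 FPKM with antibody plus 4HC and 21.0 FPKM with 4HC. The Oas1 genes are close copies of each other, so how reads were divided among them is uncertain.

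IFIT and IFITM proteins bind foreign RNA and block viral entry, and their list also held Ifi27, which belongs to neither family. Of 6 genes of the list past 1 FPKM, 4 were lower, Ifi27 among them (median log2 ratio -1.95, the value of Ifi27). Ifit3b, whose row has an older name, was not in this count. Ifit2 was not past 2-fold, at 5.73 FPKM with antibody plus 4HC and 7.29 FPKM with 4HC. Ifit3 had 0.671 FPKM with antibody plus 4HC and 4.76 FPKM with 4HC, and Ifit1 had 2.16 (antibody plus 4HC) and 9.11 FPKM (4HC). The abundant Ifitm3 had 71.2 FPKM with antibody plus 4HC and 176 FPKM with 4HC, whereas its neighbour Ifitm2 had 51.8 (antibody plus 4HC) and 53.2 FPKM (4HC). Ifi27, a mitochondrial interferon-induced protein gene, had 25.8 FPKM with antibody plus 4HC and 99.7 FPKM with 4HC. Its level was 33.1 FPKM with IFNβ and 32.2 FPKM in control, so it was the 1 lower gene within 2-fold of control after IFNβ. Among 16 other antiviral effectors past 1 FPKM, 10 were lower (median -1.38). They included Rsad2, which encodes viperin (1.43 FPKM with antibody plus 4HC, 4.30 with 4HC) and Eif2ak2, the kinase PKR that halts translation (7.82 with antibody, 16.9 without). Samhd1, a dNTP hydrolase that restricts retroviruses, had 13.1 FPKM with antibody plus 4HC and 15.0 FPKM with 4HC.

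Interferon-inducible GTPases, which act on viruses and on vacuoles holding pathogens, were lower in 12 of the 15 cases past 1 FPKM, with a median log2 ratio of -1.48 over 19 members. Mx2 (chr16:97757687-97782508) had 0.135 FPKM with antibody plus 4HC and 3.35 FPKM with 4HC, 24.8-fold apart. Mx1 stayed under 1 FPKM and so was not counted, at 0.104 FPKM with antibody plus 4HC and 0.920 FPKM with 4HC. Igtp (chr11:58013057-58021094), an immunity-related GTPase, had 1.94 FPKM with antibody plus 4HC and 9.95 FPKM with 4HC, against 80.2 FPKM with IFNβ and 1.98 FPKM in control. Irgm1 was the most abundant member with 4HC, at 8.30 FPKM with antibody plus 4HC and 23.5 FPKM with 4HC. The guanylate-binding protein genes Gbp2 (6.53 FPKM with antibody plus 4HC, 11.95 with 4HC) and Gbp4 (6.38 with antibody, 10.8 without) were lower with antibody by less than 2-fold. Tgtp1 and Tgtp2, and several Gbp genes, are near copies whose reads cannot be assigned with certainty.

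Of 6 genes of ISG15 conjugation, which hold Isg15 itself and enzymes that attach or remove it, 4 were lower past 2-fold (median log2 ratio -1.42), among them Ube2l6, the conjugating enzyme, at 4.39 FPKM with antibody plus 4HC and 14.0 FPKM with 4HC. Uba7, the activating enzyme, did not pass 2-fold, at 1.68 (antibody plus 4HC) and 2.82 FPKM (4HC). Of 6 genes in the PARP list, which holds ADP-ribosyltransferases and the partner Dtx3l, 4 were lower (median -1.15). Parp14 had 2.95 FPKM with antibody plus 4HC and 10.7 FPKM with 4HC, and Parp12 had 5.96 (antibody plus 4HC) and 15.4 FPKM (4HC). Among IFI200 and Schlafen genes, nuclear DNA-binding proteins and growth regulators, 3 of 10 past 1 FPKM were lower (median -0.60), led by Mndal with 7.60 FPKM with antibody plus 4HC and 20.1 FPKM with 4HC.

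Of 15 nucleic acid sensor genes past 1 FPKM, 4 were lower past 2-fold (median log2 ratio -0.21), and 3 of these, Ddx58 (RIG-I), Ifih1 (MDA5) and Dhx58 (LGP2), form the family of cytosolic RNA helicases. Ddx58 had 5.93 FPKM with antibody plus 4HC and 15.2 FPKM with 4HC, Ifih1 had 2.06 (antibody plus 4HC) and 5.11 FPKM (4HC), and Dhx58 had 1.00 (antibody plus 4HC) and 4.65 FPKM (4HC). The other was Zbp1, a Z-form nucleic acid sensor, with 1.67 FPKM with antibody plus 4HC and 8.43 FPKM with 4HC. Genes of the DNA sensing route were near their 4HC levels, with Mb21d1 (cGAS) at 2.17 FPKM with antibody plus 4HC and 2.52 FPKM with 4HC and Tmem173 (STING) at 7.28 (antibody plus 4HC) and 7.68 FPKM (4HC). The adaptor Mavs had 7.41 FPKM with antibody plus 4HC and 7.50 FPKM with 4HC, and the kinase Tbk1 had 8.21 (antibody plus 4HC) and 8.14 FPKM (4HC).

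Of 21 genes of MHC class I presentation, 3 were lower past 2-fold and 18 were not. All 21 had log2 ratios under 0, as did 56.7% of all 10211 genes, and the list's median was -0.47 with a range of -2.21 to -0.08. The peptide transporter gene Tap1 had 4.06 FPKM with antibody plus 4HC and 8.82 FPKM with 4HC, which with 1 FPKM added to both was no longer past 2-fold (log2 ratio -0.96). H2-T23, the gene of the Qa-1 molecule, had 11.9 FPKM with antibody plus 4HC and 33.5 FPKM with 4HC. The class I light chain B2m had 444 FPKM with antibody plus 4HC and 567 FPKM with 4HC, against 320 FPKM with IFNβ and 261 FPKM in control, and the immunoproteasome subunit gene Psmb8 had 33.0 (antibody plus 4HC) and 57.4 FPKM (4HC), against 68.8 FPKM with IFNβ and 17.9 FPKM in control. Both lay between their control and 4HC levels when antibody was present. Class I genes are also near copies, so single members are uncertain.

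The chemokines had a median log2 ratio of -0.02. Cxcl10 (chr5:92775664-92777915), a ligand of the chemokine receptor CXCR3 of T cells, was the 1 of 10 chemokines past 1 FPKM that was lower past 2-fold, and with 1 FPKM added to both means it was not (log2 ratio -0.91). It had 3.23 FPKM with antibody plus 4HC and 6.96 FPKM with 4HC, against 56.1 FPKM with IFNβ and 0.667 FPKM in control, and the counting interval of its ratio was 0.419 to 0.513. Another CXCR3 ligand gene, Cxcl11, had 0.238 FPKM with antibody plus 4HC and 0.917 FPKM with 4HC. The neutrophil chemokines Cxcl1 and Cxcl5 were at 193 and 168 FPKM with antibody plus 4HC, against 159 and 140 FPKM with 4HC, and were low in IFNβ cells at 3.52 and 1.93 FPKM. Ccl5, a chemokine of T cells and monocytes, had 46.6 FPKM with antibody plus 4HC and 48.0 FPKM with 4HC. The monocyte chemokine Ccl2 had 11.3 FPKM with antibody plus 4HC and 13.6 FPKM with 4HC.

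Inflammatory cytokines and NF-kB targets are genes that cells can also raise without interferon. Of 13 cytokine and acute phase genes past 1 FPKM, 0 were lower or higher past 2-fold (median log2 ratio -0.04), and of 16 NF-kB targets, 0 were (median -0.03, range -0.15 to 0.17). With 0.735% of all genes lower and 0 higher, counts of 0 in such short lists are near the background. Lcn2, an acute phase siderophore-binding protein, had 444 FPKM with antibody plus 4HC and 355 FPKM with 4HC, against 5.15 FPKM with IFNβ and 16.3 FPKM in control. Nos2, the inducible nitric oxide synthase, had 8.29 FPKM with antibody plus 4HC and 9.27 FPKM with 4HC. Il6 had 1.13 FPKM with antibody plus 4HC and 1.15 FPKM with 4HC, and the myeloid growth factor Csf2 had 7.30 (antibody plus 4HC) and 8.07 FPKM (4HC). The lowest of the list was Il15, a growth factor of natural killer and memory T cells, at 1.75 FPKM with antibody plus 4HC and 2.78 FPKM with 4HC.

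Of the cell cycle, damage and death genes, 0 passed 2-fold in either direction, beside 0.735% lower and 0 higher among all 10211 genes, so that a count of 0 in lists of this size is near the background. The medians of log2 ratios were 0.06 over 30 mitosis genes, -0.06 over 28 DNA replication genes, -0.05 over 22 p53 targets and -0.14 over 16 cell death genes. The proliferation gene Mki67 had 26.0 FPKM with antibody plus 4HC and 21.6 FPKM with 4HC, and Cdkn1a, which encodes the cell cycle inhibitor p21, had 3.72 (antibody plus 4HC) and 3.54 FPKM (4HC). In the cell death list, the nuclear body genes Daxx (6.90 FPKM with antibody plus 4HC, 10.5 with 4HC) and Pml (6.28 with antibody, 9.07 without) were lowest. Among 6 checkpoint and tumour receptor genes past 1 FPKM (median log2 ratio -0.22), the galectin gene Lgals9 was lower past 2-fold, with 12.7 FPKM with antibody plus 4HC and 33.5 FPKM with 4HC. Cd274, which encodes PD-L1, had 1.14 FPKM with antibody plus 4HC and 1.71 FPKM with 4HC, a 1.49-fold difference. Of the markers of other cells, Cd68 was the 1 leukocyte gene and Pdgfra the 1 fibroblast or endothelial gene past 1 FPKM, and the summed level of 15 leukocyte genes was 8.08 FPKM with antibody plus 4HC and 8.73 FPKM with 4HC. The summed level of 12 fibroblast and endothelial genes was 5.01 FPKM with antibody plus 4HC and 4.06 FPKM with 4HC.

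**Figure D2:**
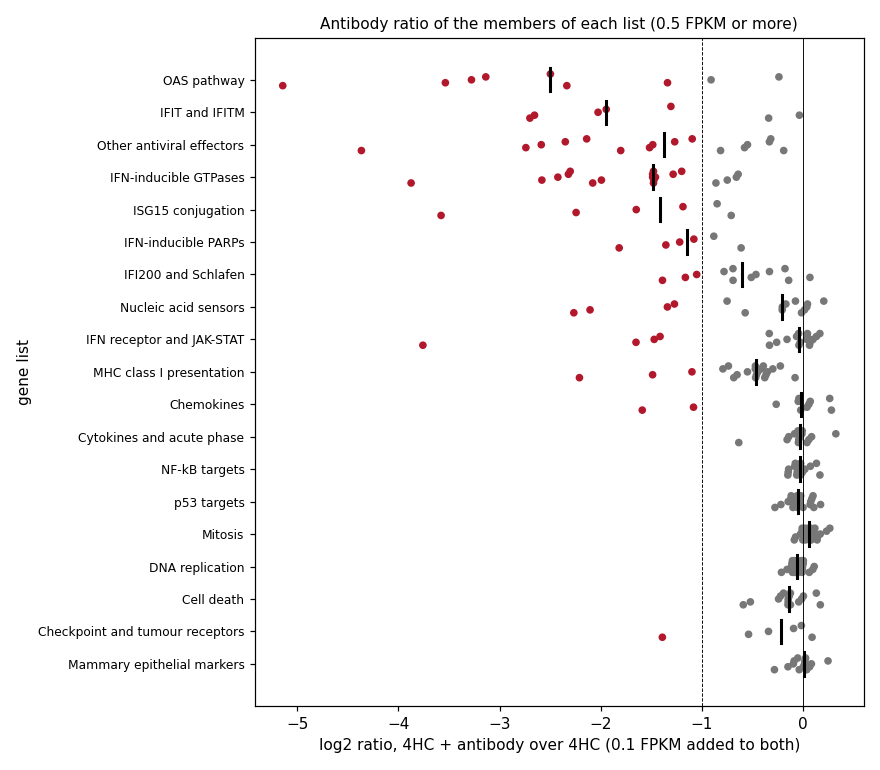
Log2 ratio of antibody plus 4HC to 4HC for each member of 19 gene lists that reached 0.5 FPKM in the higher group, with a black bar at the list's median, red points below -1 (some of them under 1 FPKM and so not counted) and a dashed line at -1. The list medians run from -2.50 for the OAS pathway to 0.06 for mitosis, and the inflammatory, NF-kB, p53 and cell cycle lists lie around 0.

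Outside the lists, 18 further genes were lower past 2-fold and are named by their values alone. The apolipoprotein L gene Apol9a had 8.60 FPKM with antibody plus 4HC and 33.0 FPKM with 4HC, and its near copy Apol9b had 12.5 (antibody plus 4HC) and 33.5 FPKM (4HC). The surface antigen gene Ly6e had 14.7 FPKM with antibody plus 4HC and 38.5 FPKM with 4HC. Genes of nuclear proteins were among them, with Sp110 at 1.47 FPKM with antibody plus 4HC and 3.87 FPKM with 4HC and the helicase gene Helz2 at 1.84 (antibody plus 4HC) and 5.02 FPKM (4HC). The TRIM genes Trim30a, Trim34a and Trim34b had 0.972, 0.424 and 0.648 FPKM with antibody plus 4HC, against 4.43, 1.16 and 1.62 FPKM with 4HC. Cfb, complement factor B of the alternative pathway, had 1.73 FPKM with antibody plus 4HC and 4.43 FPKM with 4HC. I830012O16Rik is an older name of the IFIT family gene Ifit3b, and it fell outside the IFIT list only because its row carries that name. It lies between Ifit3 and Ifit1 in the table's coordinates and had 0.134 FPKM with antibody plus 4HC and 2.16 FPKM with 4HC. Of the 75 lower genes, 45 lay in 17 runs whose gene starts were within 500 kb of the next, a count for which no background over other genes was computed. The largest run, on chr5 from 121180341 to 121357534, held Oas2, Oas3, Oas1b, Oas1g and Oas1a, and 5 of the 6 genes past 1 FPKM inside it were lower. The 17 runs, whose ends are set by lower genes, held 62 genes past 1 FPKM, and in 10 runs each of these was lower. A run of Gbp genes on chr3 had 4 of 4 lower and the Ifit run on chr19 3 of 3. Family members just outside the ends of those runs were not past 2-fold. They were Gbp2 (chr3:142283626-142300972, log2 ratio -0.86) and Ifit2 (chr19:34625183-34651024, log2 ratio -0.34). The Irgm1 and Tgtp run on chr11 had 3 of 5 lower and the run from Ifitm3 to Irf7 on chr7 had 2 of 11.

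How much of the 4HC increment was present with antibody was asked for genes that 4HC had over 2-fold above control. The increment present is the antibody plus 4HC mean less the control mean, as a percent of the 4HC mean less the control mean. The 4HC libraries enter both the choice of these genes and the percent, so it is a description only. Of the 10211 genes, 1331 (13.0%) were over 2-fold higher with 4HC than in control, and their median increment present was 104% (quartiles 91.4% to 114.5%). Most, 1028 genes, lay between 75% and 125%, and 98 (7.36%) were under 50%. Of the lists, the OAS pathway had a median of 6.44%, PARPs 7.93%, IFIT and IFITM 12.4%, ISG15 conjugation 17.5%, GTPases 26.1%, MHC class I presentation 50.3%, NF-kB targets 98.3% and chemokines 100.5%.

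The part present differed among the lower genes. Parts of 0.237% in Ifi44, 0.531% in Oas1a, 3.77% in Irf7, 4.83% in Usp18 and 4.86% in Bst2 were among the smallest above 0. Among those with larger parts were Cxcl10 at 40.7%, Oasl1 at 33.4%, Lgals9 at 32.0% and Rsad2 at 30.4%. How complete the receptor block was in these cultures was not tested. Among the lower genes, 29 kept under 10% and 22 kept over 25%. In 9 lower genes the antibody mean was under the control mean: Ifi27, Irf9, Oas1b, Parp12, Irgm2, Igtp, Tap1, Xaf1 and Gbp2b. In Parp12 the means were 5.96 FPKM with antibody plus 4HC and 6.21 FPKM in control, and in Ifi27 they were 25.8 (antibody plus 4HC) and 32.2 FPKM (control). At the opposite extreme, the 8 genes with ratios nearest 1 among those over 4-fold higher with 4HC and past 5 FPKM were Cnp, Postn, Vim, Crip1, Plk1, Lrrn4cl, Fam64a and Cenpa. Vim, the mesenchymal intermediate filament gene, had 360.2 FPKM with antibody plus 4HC and 359.5 FPKM with 4HC. Plk1, a mitotic kinase, had 27.2 (antibody plus 4HC) and 27.3 FPKM (4HC), and the centromeric histone gene Cenpa had 45.8 (antibody plus 4HC) and 46.1 FPKM (4HC).

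**Figure D3:**
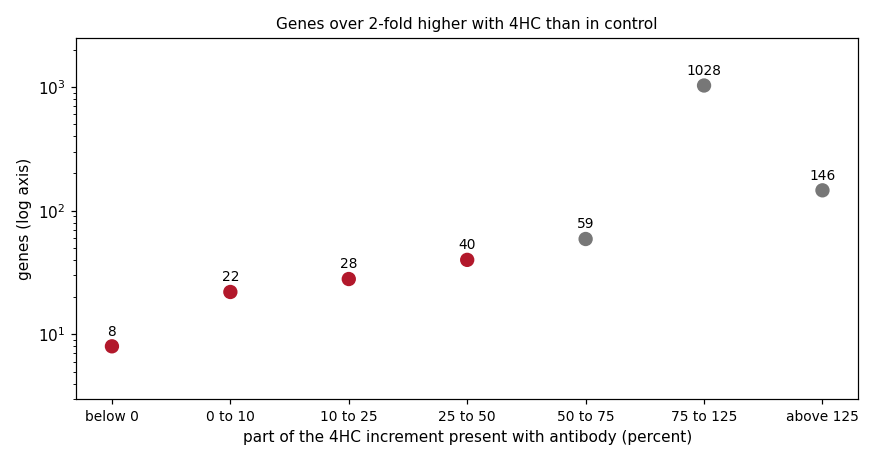
Number of genes (log axis) by the part of the 4HC increment over control that was present with antibody, for the 1331 genes over 2-fold higher with 4HC than in control, with red points for parts under 50%. The count is 1028 at 75% to 125% and 98 in all under 50%.

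The response to added IFNβ gives a measure of interferon sensitivity from libraries that the antibody comparison does not use. Of the 10211 genes, 156 (1.53%) were over 4-fold higher with IFNβ than in control, and 72 of these were lower with antibody past 2-fold. Of 81 genes over 8-fold higher with IFNβ, 58 (71.6%, exact 95% interval 60.5% to 81.1%) were lower with antibody. This interval treats genes as independent, which they are not, and covers no difference between cultures. The share was 18.7% of 75 genes at 4 to 8-fold (14 genes), 0.388% of 515 at 2 to 4-fold (2) and 0.0108% of 9220 within 2-fold (1). Of the 75 lower genes, 74 were over 2-fold higher with 4HC than in control, beside 13.0% of all 10211 genes. The same 4HC means enter this ratio and the choice of the lower genes, so a high share is partly set by that choice. The classes were not limited to genes raised by 4HC, so the shares also depend on which genes 4HC raised. No gene of the 320 that were over 2-fold below control with IFNβ was lower with antibody. The median log2 ratio of antibody plus 4HC to 4HC was -1.41 in the first of these classes, -0.38 in the next and 0.00293 in the class at 2 to 4-fold. Across the 156 genes, which are not independent of each other, the log2 ratios of the 2 comparisons had a Pearson coefficient of -0.71 and a Spearman coefficient of -0.69. These genes were chosen on the IFNβ ratio, and across all 10211 genes the coefficients were -0.39 (Pearson) and 0.04 (Spearman). Across the 9220 genes within 2-fold with IFNβ, they were 0.06 (Pearson) and 0.07 (Spearman).

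**Figure D4:**
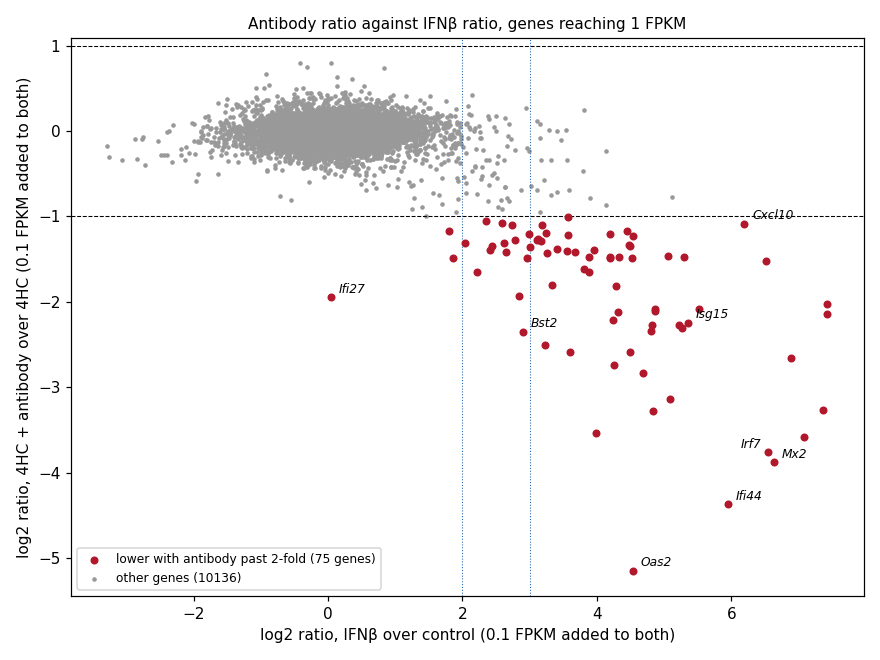
Log2 ratio of antibody plus 4HC to 4HC (vertical) against log2 ratio of IFNβ to control (horizontal) for 10211 genes, with 75 genes lower with antibody past 2-fold in red, dashed lines at 2-fold and dotted lines at 4-fold and 8-fold with IFNβ. The red points lie to the right of 2-fold with IFNβ except for Ifi27, and no gene lies above the upper dashed line.

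The 2 comparisons differed in 23 genes that were over 8-fold higher with IFNβ but not past 2-fold lower with antibody. Of these, 14 had log2 ratios between -1 and -0.25, such as Ifi47, a GTPase gene, with 4.02 FPKM with antibody plus 4HC and 6.93 FPKM with 4HC, and the zinc finger gene Trafd1 with 6.96 (antibody plus 4HC) and 13.5 FPKM (4HC). A further 8 lay within 0.25 of 0, among them the inhibitors of differentiation Id1 (7.97 FPKM with antibody plus 4HC, 7.89 with 4HC) and Id3 (10.2 with antibody, 10.2 without), the keratin gene Krt14 (10.2 with antibody, 10.1 without) and the chaperone gene Hspa8 (789 with antibody, 730 without). The remaining one, the heat shock gene Hspa1b, had 5.24 FPKM with antibody plus 4HC and 4.39 FPKM with 4HC, against 55.9 FPKM with IFNβ and 3.90 FPKM in control. Of the 23 genes, 20 were over 2-fold higher with 4HC than in control, beside 13.0% of all 10211 genes, and Hspa1b was not. The difference in collection time enters the IFNβ ratio of each of them. Levels of the 75 lower genes with 4HC were mostly below those reached with IFNβ: in 66 the IFNβ mean exceeded the 4HC mean. The collection times after exposure differed, and the same count over all genes was not made.

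The ISRE matches shown for Oas1a, Bst2 and Isg15 were frequent among the lower genes. RefSeq promoter windows were matched for 57 of the 75, and 36 of these (63.2%, exact 95% interval 49.3% to 75.6%) held at least 1 ISRE match, with 14 holding 2 or more. The interval treats promoters as independent, though some of the genes are close copies. Of 61 promoters of genes over 4-fold higher with IFNβ and not lower with antibody, 14 held a match. Of 721 promoters of genes over 2-fold higher with 4HC, under 2-fold with IFNβ and not lower, 27 (3.74%) did. All genes past 1 FPKM with a promoter window held a match in 3.76% of 8170 cases, and all 32851 windows in 3.44%. The other interferon element, GAS (TTCNNNGAA, the same on both strands), was found in 19.3% of lower genes and 8.23% of all genes past 1 FPKM. Lower genes with an ISRE match had a median log2 ratio of -1.48 (36 genes) and those without had -1.49 (21 genes). A match is a stretch of letters and not a measured binding site, and for genes without one, such as Irf7, only this window was searched.

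**Figure D5:**
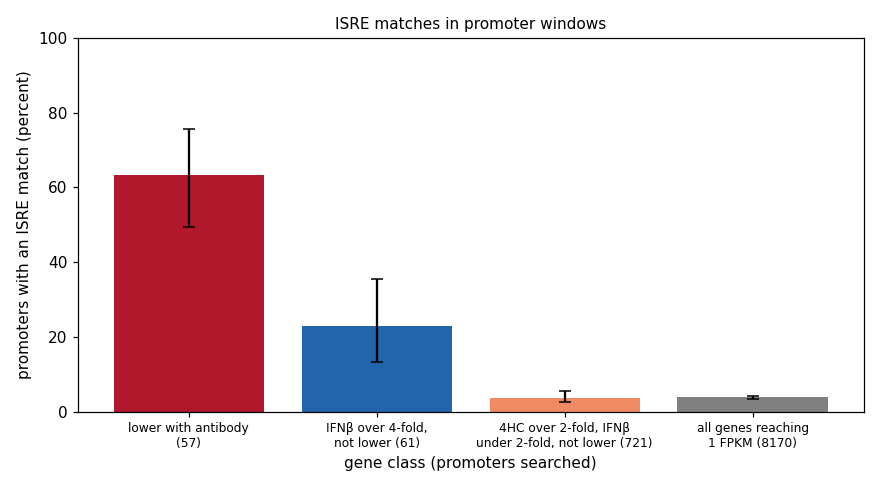
Percent of promoter windows with at least 1 ISRE match in 4 classes of genes, with the number of promoters in brackets and bars for the exact 95% binomial interval, which covers sampling of promoters only. The share is 63.2% for genes lower with antibody and 3.76% for all genes past 1 FPKM.

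The small RNA loci past 2-fold rested on few reads. The 15 higher and 10 lower loci are microRNA and small nucleolar RNA genes, and in those with a counting interval the higher group had a median of 14.5 reads and at most 31.5. Of 24 such intervals, 14 crossed a ratio of 1 and 23 crossed 2-fold. Mir7651, with 2.21 FPKM with antibody plus 4HC and 0.140 FPKM with 4HC (about 16.9 and 0.986 reads), had an interval of 2.45 to 654 and was the only one whose interval lay past 2-fold. Mir23b had 1.98 FPKM with antibody plus 4HC and 0.605 FPKM with 4HC, and the small nucleolar RNA gene Snora47 had 2.10 (antibody plus 4HC) and 0.860 FPKM (4HC). Libraries selected for poly(A) RNA do not measure mature small RNAs, and reads of overlapping host transcripts cannot be told apart from theirs. Mir7652 was listed at 0 with 4HC, beside 1.72 FPKM with antibody plus 4HC.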

How the data were processed

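Per the labels, poly(A)-selected, strand-specific libraries were made from RNA of cultured 4T1 cells, and the authors' tools were TopHat2, featureCounts and edgeR on build mm9. Neither the tool versions nor the strand setting used in counting were given in the sources used here. The deposited table holds FPKM averaged by the authors over the libraries of each group (control 2, other groups 3). Its columns of the authors' own fold changes and p-values were not used.

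Ratios were computed on log2(FPKM + 0.1) with Python 3.11.15, pandas 2.3.3 and scipy 1.17.1. A gene counted as lower or higher past 2-fold with 1 FPKM or more in the higher group. No test was made because single-library values were not analysed here, so the count tests and library removals planned could not be run. Depth came from the smallest steps between values of single-exon receptor genes of 800 to 1100 bases, so that reads per gene are estimates. Of 24197 rows, 23251 matched a reference symbol and 827 a synonym, 92 matched none, and 27 names had become dates and were left out of gene lists. Small RNA loci were recognised by name (prefixes Mir, Snor, Rnu and Scarna), so any with another name stayed among the genes. Coordinates are the table's mm9 spans (introns and UTRs included), the first where several are listed. Promoters are RefSeq GRCm38.p6, and no coordinates were converted.

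The comparison, 22 gene lists (366 members, 6 without a row) and tests were chosen with earlier results of these data known. Named genes were the 20 lowest ratios at 5 FPKM or more, the 10 highest ratios past 2-fold, the 3 lowest of each list at 1 FPKM or more, the 8 nearest 1 among genes over 4-fold higher with 4HC, and 22 set genes. Any other gene named was chosen after its values were seen. Alternatives were other FPKM minimums, folds, pseudocounts, a median-centred ratio, omission of small RNA loci, other IFNβ cutoffs and 2 or more ISRE matches. Some items are not reported here.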

Additional observations from a re-analysis of the deposited data

How the results depend on the processing

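No paired analysis was possible because the table holds group means only, and for the same reason no library could be left out. The 85 lower rows became 54 at a minimum of 5 FPKM, 141 at a fold of 1.5 and 37 at a fold of 3, and stayed within 1.5 times under every other alternative run. The 15 higher rows became 41 at a minimum of 0.5 FPKM, 45 with no minimum, 0 at 5 FPKM, 54 at a fold of 1.5, 7 at a fold of 3, 3 with a pseudocount of 1 and 0 without small RNA loci. Without small RNA loci and at a fold of 1.5, an alternative chosen after seeing the data, 7 genes were higher. A pseudocount of 1 moved list medians to -2.15 (OAS pathway), -1.30 (IFIT and IFITM), -1.16 (other antiviral effectors), -1.01 (GTPases) and -1.23 (ISG15 conjugation). Members at 5 FPKM or more gave -3.14 (OAS pathway), -1.31 (IFIT and IFITM), -1.18 (other antiviral effectors), -1.65 (ISG15 conjugation) and -0.057 (checkpoint and tumour receptors). No list median and no named gene past 2-fold changed direction under the alternatives run, but 64 of 293 recomputed log2 ratios of named genes moved by over 0.143, 46 of them with a pseudocount of 1 and 18 with none. With a pseudocount of 1, 16 of the 75 lower genes were no longer past 2-fold, among them Cxcl10 (-0.91), Tap1 (-0.96), Slfn8 (-0.95), Ifih1 (-0.9993) and Dtx3l (-0.95). The pseudocount cancels from the increment present. The share of IFNβ-responsive genes lower with antibody was 46.2% at 4-fold, 11.03% at 2-fold and 71.6% at 8-fold, and 24.6% of lower genes with a promoter held 2 or more ISRE matches. Depth limits the small RNA loci and genes with few reads. The difference between cultures was not measured here for any value, as the authors' own p-values were not used.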

Other observations

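Genes that were most higher with antibody plus 4HC stayed under 2-fold, and they were picked here by looking at those values. Among genes that reached 5 FPKM, the water channel gene Aqp1 had the highest ratio, with 5.36 FPKM with antibody plus 4HC and 3.76 FPKM with 4HC, 1.43-fold higher. The next was AF357399, a short locus (chr7:29136558-29136652) that the name rule for small RNA loci did not catch. It had 5.14 FPKM with antibody plus 4HC and 3.74 FPKM with 4HC on few reads (counting interval of the ratio 0.949 to 2.00). Spaca6 followed with 6.91 (antibody plus 4HC) and 5.14 FPKM (4HC). Hspg2, which encodes perlecan, had 15.4 FPKM with antibody plus 4HC and 11.5 FPKM with 4HC, and Fn1, which encodes fibronectin, had 362 (antibody plus 4HC) and 277 FPKM (4HC). The growth factor receptor gene Fgfr2 had 9.03 FPKM with antibody plus 4HC and 6.89 FPKM with 4HC, and the metabolic enzyme genes Idh1 and Gstp1 had 15.7 and 70.7 FPKM with antibody plus 4HC, against 12.03 and 54.8 FPKM with 4HC. These differences were not tested, and 7 genes other than loci named as small RNAs passed 1.5-fold in this direction.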
